A study of Homo sapiens with 24 samples.

Results

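The genes of the aminoacyl-tRNA synthetases were followed in RNA-seq read counts of 24 libraries of LNCaP cells, an androgen-responsive line from a human prostate tumour. Members were taken by name, as symbols made of an amino acid letter and ARS with or without a closing 1 or 2, together with FARSA, FARSB and EPRS1, at 100 or more counts summed over the 24 libraries. This gave 36 of the 60649 features of the table. Of these, 20 encode cytosolic synthetases and 16, with names ending in 2, mitochondrial ones. GARS1 and KARS1 each supply both compartments from 1 gene and are counted with the cytosolic set by their names. VARS2, the mitochondrial valyl-tRNA synthetase gene, matched by name but had 5 counts in all and was left out. All 36 members passed the filter on low counts in every comparison.

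The study concerns WDR77, a WD-repeat cofactor of the androgen receptor. In study 1 the cells received an empty vector (EV) or a plasmid for WDR77-peptide 3 (P3). In study 2 they received a non-targeting siRNA (siCtrl) or siRNAs against WDR77 (siWDR77). All cells were then kept in androgen-deprived medium and given 5 nM R1881, a synthetic androgen, or its ethanol vehicle for 48 h. Each of the 8 groups held 3 libraries, described by the submitters as biological triplicates, and a library is named here by its group and the S number of its title. All groups are therefore transfected cells of 1 line, and no untransfected cells were analysed. The 2 studies differ in what was transfected, so study and transfection cannot be told apart.

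Aminoacyl-tRNA synthetases join each amino acid to its transfer RNA, the step that sets the genetic code and feeds the ribosome. Human cells keep separate nuclear genes for most cytosolic and mitochondrial enzymes, and several cytosolic ones sit together in a large multisynthetase complex. Many cytosolic synthetase genes belong to the amino acid response, in which the transcription factor ATF4 binds composite C/EBP-ATF elements when amino acids or protein folding are limiting.

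The letters of that element are shown first, since TARS1, MARS1 and YARS2, among the genes the results turn on, hold a match. The letters TGATGNAA were searched on both strands of RefSeq promoter sequences (GRCh38.p14, 250 bases before to 50 after the RefSeq gene start), which matched 30 of the 36 members. No entry was used for 6 members, AARS2, LARS1, VARS1 and YARS1 among them. The letters were found in 7 of the 30 promoters, 6 of 16 cytosolic (37.5%) and 1 of 14 mitochondrial (7.14%), against 3.62% of all 35116 promoters in the table. Of the synthetases listed as amino acid response genes, 6 of 10 matched promoters held them. A match is a description of the sequence and shows no binding. The 7 stretches of 30 bases follow, read 5′ to 3′ along the gene, with the matched letters or their reverse complement in capitals.
TARS1 (chr5:33440956-33440985, plus strand): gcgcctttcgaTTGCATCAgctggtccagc
MARS1 (chr12:57488053-57488082, plus strand): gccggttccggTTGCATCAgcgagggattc
CARS1 (chr11:3057407-3057436, minus strand): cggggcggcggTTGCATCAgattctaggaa
IARS1 (chr9:92293692-92293721, minus strand): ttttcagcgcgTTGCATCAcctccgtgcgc
AARS1 (chr16:70289675-70289704, minus strand): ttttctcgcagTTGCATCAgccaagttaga
NARS1 (chr18:57621804-57621833, minus strand): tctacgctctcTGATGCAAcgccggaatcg
YARS2 (chr12:32756076-32756105, minus strand): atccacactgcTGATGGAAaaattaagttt
Of the cytosolic matches, 5 read TTGCATCA and that of NARS1 reads TGATGCAA, the same letters on the other strand. YARS2 has TGATGGAA.

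Depth was 16665915 to 24260446 counts per library. WDR77 was lower in siWDR77 than in siCtrl by -1.76 ± 0.093 without hormone (log2, SE; edgeR adjusted p = 5.75e-12), and KLK3, the gene of prostate-specific antigen, rose with R1881 in all 4 arms. Between P3 and EV WDR77 differed by -0.063 ± 0.068 without hormone (SE; edgeR adjusted p = 0.572). Under R1881 WDR77 was higher in P3 by 0.64 ± 0.067 (SE; edgeR adjusted p = 2.31e-10). The cause of that difference was not tested. All 9 luminal prostate markers exceeded 1 CPM (reads scaled to a common library size) in every library. Of 13 markers of basal, stromal, immune and endothelial cells, 9 stayed under 1 CPM throughout, with COL1A2 and CD3E among them at 0, and COL1A1 and VWF exceeded it throughout. The sum of the 13 was 32.7 to 46.9 CPM without and 18.5 to 36.5 CPM with R1881. Their part in the results was not tested, and in bulk libraries a change in the mix of cells and a change per cell cannot be told apart. The library siCtrl_vehicle S35 stood apart from its group, with 8.4% of counts from mitochondrially encoded genes against 5.15% to 6.3% elsewhere and KLK3 at 52.6 CPM against 204 and 203 CPM, so study 2 results were also computed without it. TMM scaling factors, which correct for a few abundant transcripts, were 0.894 to 0.933 in R1881 libraries of EV, siCtrl and siWDR77 and 1.01 to 1.12 in the vehicle libraries. Without this scaling the median of all genes moved from -0.041 to -0.21 (log2) for R1881 in EV, from -0.02 to -0.11 in P3, from -0.045 to -0.30 in siCtrl and from -0.016 to -0.31 in siWDR77, and from 0.025 to 0.18 for P3 under R1881.

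Cytosolic synthetases were the more abundant class. On a scale of CPM per kilobase of annotated exons (GENCODE 29, GRCh38), the median level of the 20 cytosolic genes in EV without hormone was 38.5, with a range of 4.85 to 116. The median of the 16 mitochondrial genes was 10.6, with a range of 1.57 to 59.9. AARS1, the alanyl-tRNA synthetase, ranked highest in all 8 groups, at 116 ± 1 CPM per kilobase (mean ± SD, n = 3) in EV without hormone. SARS2, for mitochondrial serine, ranked lowest at 1.57 ± 0.031. CARS1, the cysteinyl-tRNA synthetase, was the lowest of the cytosolic genes in every group. IARS2, for mitochondrial isoleucine, stood far above the other mitochondrial genes, at 59.9 ± 1.8 CPM per kilobase against 15.4 ± 0.63 for EARS2, the next in that class. In that group 21 of the 35 neighbouring steps in the order held in every library, and the other 14 neighbours overlapped, among them MARS2, YARS2 and AARS2. Over the 8 groups 13 to 21 steps held.

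Summed over the 20 genes, the cytosolic level was 3394 ± 62.8 CPM (mean ± SD, n = 3) in siCtrl without hormone and 4586 ± 77.2 CPM with R1881. In siWDR77 the corresponding sums were 3234 ± 91.1 and 4433 ± 191 CPM. The hormone groups of study 2 did not overlap their vehicle groups. In study 1 the sums lay closer together, at 4280.1 ± 38.7 CPM in EV without and 4339.7 ± 81 CPM with R1881, and the EV groups overlapped. P3 had 3983 ± 197 CPM without and 4132 ± 89.3 CPM with hormone. The 16 mitochondrial genes summed to 682 ± 47.4 CPM in siCtrl without and 773 ± 15.9 CPM with R1881, and to 895 ± 14.2 and 916 ± 9.89 CPM in EV. The cytosolic sum was therefore 5 ± 0.371 times the mitochondrial sum in siCtrl without hormone and 5.94 ± 0.213 times with it, and 4.79 ± 0.113 and 4.74 ± 0.0379 times in EV. S35 alone had a ratio of 5.42 among the siCtrl vehicle libraries, against 4.75 and 4.81 in the other two. These sums have no test of their own. Without TMM scaling the EV cytosolic sum was 4356 ± 18.6 CPM without and 3928 ± 83.9 CPM with R1881, which turns the direction of that difference, while in siCtrl it was 3718 ± 59 and 4197 ± 143 CPM. The mitochondrial sum without TMM scaling was 747 ± 63 CPM without and 707 ± 12.5 CPM with R1881 in siCtrl, and 911 ± 19.6 and 829 ± 11.3 CPM in EV, so its direction turned in both arms.

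**Figure D1:**
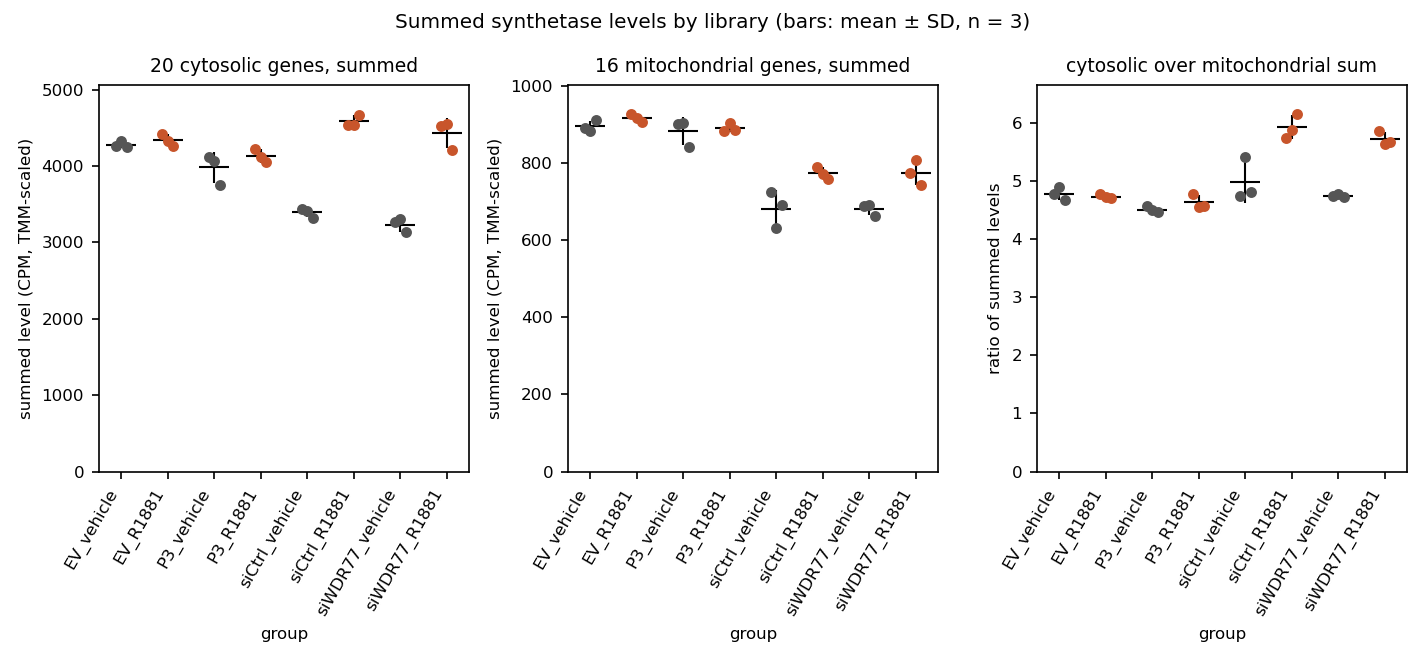
Summed level of the 20 cytosolic and 16 mitochondrial synthetase genes (TMM-scaled CPM) and their ratio, 1 point per library, grey for vehicle and orange for R1881, with the mean ± SD of 3 libraries as lines. The cytosolic sum with R1881 lies above the vehicle libraries in siCtrl and siWDR77, from 4213 to 4676 CPM against 3131 to 3441 CPM, and overlaps them in EV.

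R1881 raised most cytosolic synthetase genes in cells with the control siRNA. Of 20 members 16 rose, LARS1 fell, and EPRS1, KARS1 and QARS1 did not pass the test, where 51.1% of the 17893 genes tested were called, 25.7% as rises and 25.4% as falls. A gene is called at an edgeR adjusted p under 0.05 over all genes tested. The median log2 fold change of the class was 0.40, against -0.045 for all genes. Without TMM scaling 10 rose and 4 fell and the median was 0.14, and on either scaling the class median stood 0.44 above that of all genes. Leaving out S35 gave the same counts of 16 and 1. The list was known to move in these libraries when it was chosen, so its count describes the class and does not set it apart from other genes.

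The members outside the multisynthetase complex accounted for most of the rise. All 12 of them rose, with a median of 0.50, and all 12 rose without S35, while 8 did without TMM scaling. TARS1 (chr5:33440696-33469539, plus strand, GRCh38), the threonyl-tRNA synthetase, stood at 202, 203 and 201 CPM in siCtrl without hormone and at 382, 379 and 383 CPM with R1881. It rose by 0.92 ± 0.051 (SE; edgeR adjusted p = 1.04e-13) on the log2 scale, a fold change of 1.89, and the libraries within each group lay close together. YARS1 (chr1:32775237-32818153, minus strand), for tyrosine, had 128, 136 and 119.9 CPM without and 232, 223 and 259 CPM with hormone and rose by 0.90 ± 0.068 (SE; edgeR adjusted p = 3.76e-11). GARS1 (chr7:30594681-30634033, plus strand), for glycine in both compartments, had 164, 165 and 164 CPM without and 278, 280.3 and 339.9 CPM with hormone and rose by 0.87 ± 0.074 (SE; edgeR adjusted p = 1.6e-09). For both genes the groups did not overlap, and siCtrl_R1881 S8 was the highest library. The other 9 rose by 0.26 to 0.66, among them WARS1 (tryptophan) by 0.66 ± 0.061, CARS1 (cysteine) by 0.65 ± 0.093 and both subunit genes of the phenylalanine enzyme, FARSB by 0.54 ± 0.071 and FARSA by 0.39 ± 0.059.

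Within the multisynthetase complex the response was mixed. Of its 8 synthetases 4 rose, 1 fell and 3 did not pass, with a median of 0.22. Without TMM scaling 2 rose and 4 fell, so the sign of this group turned. MARS1 (chr12:57475445-57517569, plus strand), the methionyl-tRNA synthetase, changed most, from 155, 155 and 149 CPM to 254, 261 and 286 CPM, and rose by 0.80 ± 0.064 (SE; edgeR adjusted p = 9.91e-11). IARS1 and RARS1, for isoleucine and arginine, rose by 0.41 ± 0.055 and 0.33 ± 0.067. LARS1 (chr5:146113038-146182660, minus strand), the leucyl-tRNA synthetase and a sensor of leucine for mTORC1, went the other way. It had 173, 161 and 170.4 CPM without and 148, 148 and 145 CPM with R1881, with no overlap, and fell by 0.19 ± 0.054 (SE; edgeR adjusted p = 0.00451). EPRS1, which joins glutamate and proline activities in 1 protein, differed by 0.10 ± 0.059 (SE; edgeR adjusted p = 0.147), KARS1 (lysine) by 0.087 ± 0.058 (SE; edgeR adjusted p = 0.218) and QARS1 (glutamine) by 0.055 ± 0.063 (SE; edgeR adjusted p = 0.493).

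Mitochondrial synthetases split in both directions. Of 16 members 7 rose, 2 fell and 7 did not pass, so that the share called was near the 51.1% of all genes. The class had a median of 0.13, and without TMM scaling 3 rose and 5 fell, which turns its sign. YARS2 (chr12:32727490-32755902, minus strand), for mitochondrial tyrosine, had 20.1, 17.3 and 20.4 CPM without and 34.9, 36.9 and 32.9 CPM with R1881 and rose by 0.86 ± 0.089 (SE; edgeR adjusted p = 1.21e-08). MARS2 (chr2:197705369-197708387, plus strand) had 22.8, 17.3 and 22.3 CPM without and 36.9, 34.2 and 34.3 CPM with hormone and rose by 0.76 ± 0.1 (SE; edgeR adjusted p = 6.95e-07). RARS2 (chr6:87514378-87590003, minus strand) had 25.6, 26.6 and 25.4 CPM without and 38.8, 38 and 40.4 CPM with hormone and rose by 0.59 ± 0.082 (SE; edgeR adjusted p = 1.12e-06). None of the 3 overlapped between groups, and for YARS2 and MARS2 the lowest vehicle library was S35. WARS2, AARS2, IARS2 and TARS2 rose by 0.20 to 0.38. FARS2 (chr6:5261044-5829192, plus strand), for mitochondrial phenylalanine, had 12.9, 9.99 and 10.7 CPM without and 8.65, 8.81 and 6.23 CPM with hormone and fell by 0.50 ± 0.14 (SE; edgeR adjusted p = 0.00534), a call lost without siCtrl_R1881 S8 (edgeR adjusted p = 0.0526). Its groups did not overlap.

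Set against their counterparts for the same amino acid, the 2 classes moved together for some amino acids and apart for others. Among 17 pairs of a mitochondrial with a cytosolic gene, both rose in 7, for alanine, isoleucine, methionine, arginine, threonine, tryptophan and tyrosine. The phenylalanine genes went apart, with FARSA and FARSB higher and FARS2 lower. In EV both genes rose in 4 pairs, for threonine, methionine, arginine and tyrosine, and both fell for leucine. There CARS1 was higher and CARS2 lower, and IARS2 higher and IARS1 lower. These pairs are counted on TMM-scaled values and were not recounted without that scaling. With it 25.7% of all genes rose in siCtrl and 24.9% in EV. EPRS1 is paired with both PARS2 and EARS2, and FARS2 with both FARSA and FARSB. The EV calls of LARS2 and IARS1, behind the leucine and isoleucine patterns there, were lost with size factors of the RLE method and with DESeq2. FARS2 encodes a single-chain enzyme, unlike the cytosolic phenylalanine enzyme of FARSA and FARSB subunits.

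**Figure D2:**
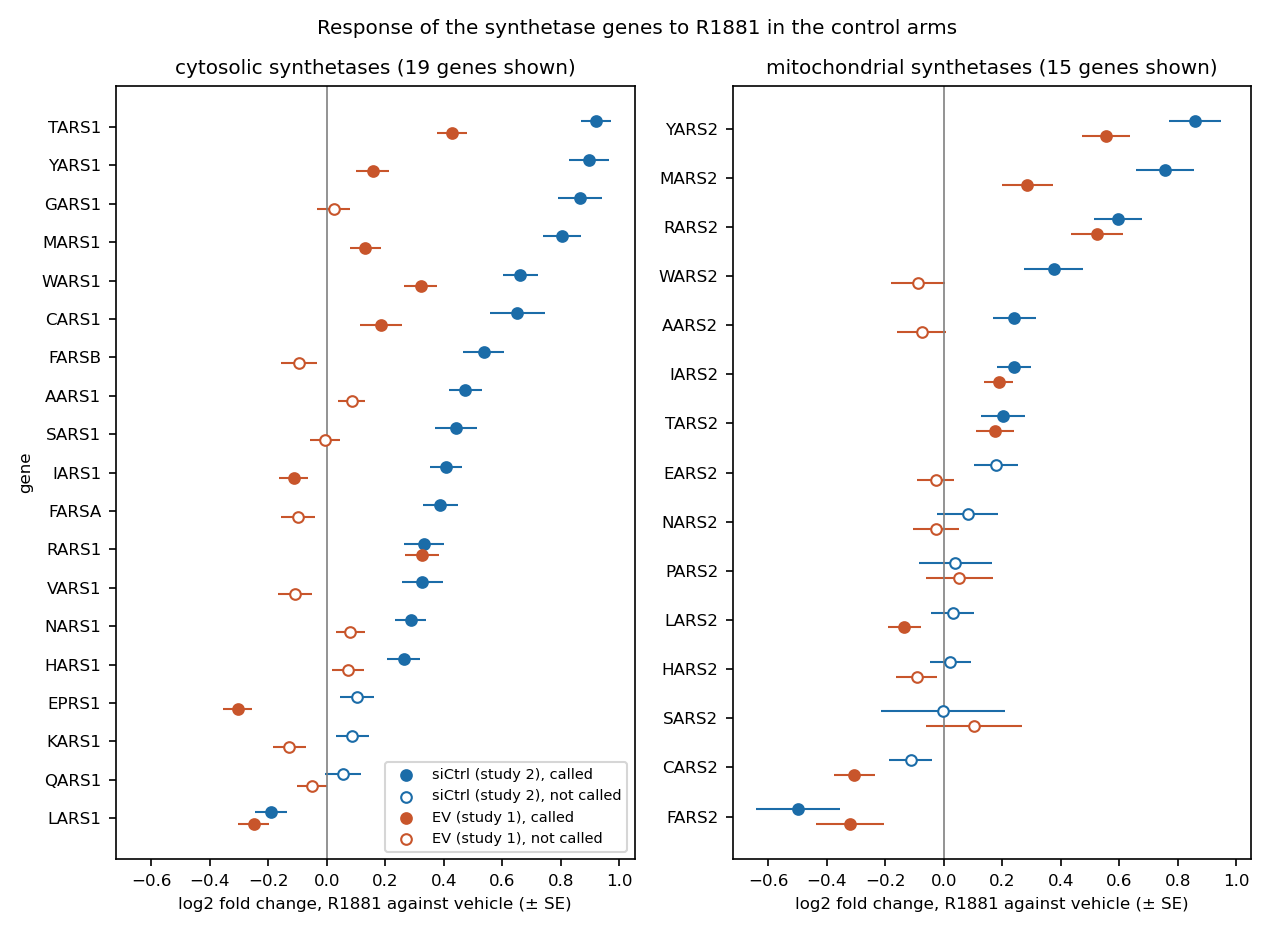
Log2 fold change with R1881 (± SE) of 34 synthetase genes in the 2 control arms, siCtrl in blue and EV in orange, with filled points for genes called. Each value contrasts 3 with 3 libraries, in an edgeR fit of all the groups of that study. Cytosolic genes called higher run from 0.26 to 0.92 in siCtrl and from 0.13 to 0.43 in EV, 16 against 7 of all 20 members, and without TMM scaling 10 against 3.

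In cells with the empty vector the same hormone moved fewer cytosolic synthetases and by less. There 7 of 20 rose and 3 fell, where 51.4% of the 17772 genes tested were called, 24.9% as rises and 26.4% as falls, and the class median was 0.047 against -0.041 for all genes. With 10 of 20 called, the share was near that of all genes, and without TMM scaling 3 rose and 10 fell, which turns the sign of the class. TARS1 again led, from 246, 265 and 238 CPM to 341, 343 and 325 CPM, and rose by 0.43 ± 0.051 (SE; edgeR adjusted p = 2.3e-09). RARS1 (chr5:168486445-168519299, plus strand) had 108, 114 and 107 CPM without and 149.8, 133 and 129 CPM with R1881 and rose by 0.32 ± 0.057 (SE; edgeR adjusted p = 6.85e-06). WARS1 (chr14:100333788-100376805, minus strand) had 111, 118 and 119 CPM without and 147, 147 and 141 CPM with R1881 and rose by 0.32 ± 0.057 (SE; edgeR adjusted p = 8.69e-06). These 3 genes did not overlap between the groups. CARS1, YARS1 and MARS1 rose by 0.13 to 0.18, while GARS1, with 206, 208 and 199 CPM without and 214, 206 and 202 CPM with hormone, differed by 0.023 ± 0.056 (SE; edgeR adjusted p = 0.757) and overlapped.

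The cytosolic genes that fell in EV all belong to the multisynthetase complex. EPRS1 (chr1:219968601-220046658, minus strand) had 380.5, 395 and 385 CPM without and 313, 326 and 301 CPM with R1881 and fell by 0.31 ± 0.049 (SE; edgeR adjusted p = 1.33e-06). LARS1 had 209.6, 218 and 211 CPM without and 184, 189 and 163 CPM with hormone and fell by 0.25 ± 0.053 (SE; edgeR adjusted p = 0.000109). Neither overlapped between groups. IARS1 (chr9:92210207-92293756, minus strand) had 337, 342 and 345 CPM without and 316, 329 and 299 CPM with hormone and fell by 0.11 ± 0.049 (SE; edgeR adjusted p = 0.0475), a call lost with size factors of the RLE method, with DESeq2, without a filter and in 9 of 12 fits that left out a library of study 1. In the complex 3 of 8 rose and 3 fell, and of the 12 outside it 4 rose and none fell, at a median of -0.083 and 0.076. Without TMM scaling the counts were 1 and 5 in the complex and 2 and 5 outside it.

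Of the mitochondrial genes in EV 5 rose and 4 fell, near the 51.4% of all genes called, with a median of -0.028, and without TMM scaling 2 rose and 9 fell. YARS2 had 24.5, 23.4 and 23.1 CPM without and 34.8, 35.6 and 33.7 CPM with R1881 and rose by 0.55 ± 0.082 (SE; edgeR adjusted p = 2.35e-07). RARS2 had 21.3, 21.8 and 21.7 CPM without and 30.7, 30.3 and 32.3 CPM with hormone and rose by 0.52 ± 0.088 (SE; edgeR adjusted p = 2.68e-06). Both were well apart between the groups, and MARS2, IARS2 and TARS2 rose by 0.18 to 0.29. CARS2 (chr13:110641412-110713603, minus strand), for mitochondrial cysteine, had 45.1, 44.5 and 49.5 CPM without and 37.7, 37.2 and 37.5 CPM with hormone and fell by 0.31 ± 0.07 (SE; edgeR adjusted p = 0.00028). FARS2 had 14.4, 13.9 and 15.3 CPM without and 12.1, 11.7 and 11 CPM with hormone and fell by 0.32 ± 0.12 (SE; edgeR adjusted p = 0.0189). Both genes were lower in every hormone library than in any vehicle library. LARS2 (chr3:45388506-45549421, plus strand) had 99.9, 95.8 and 98.3 CPM without and 88.9, 87.6 and 91.1 CPM with hormone and fell by 0.14 ± 0.056 (SE; edgeR adjusted p = 0.0418). The call of LARS2 was lost with RLE, with DESeq2, without a filter, in the fit of all 24 libraries and in 8 of 12 fits without a library. That of FARS2 was lost with DESeq2 and in 3 of 12 such fits.

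The difference between the responses in the 2 control arms was tested directly, in a fit of the 12 EV and siCtrl libraries that was added after the data were seen. The response was larger in siCtrl for 15 of 20 cytosolic and 3 of 16 mitochondrial genes and smaller for none, where 10.8% of the 17538 genes tested had a larger and 6.35% a smaller response in siCtrl. The class medians of the difference were 0.43 and 0.12, and that of all genes 0.026. Without TMM scaling 13 cytosolic and 0 mitochondrial genes passed, and without S35 14 and 0. GARS1 differed most, by 0.85 ± 0.088 (SE; edgeR adjusted p = 1.94e-07), followed by YARS1 by 0.75 ± 0.087 (SE; edgeR adjusted p = 1e-06) and MARS1 by 0.68 ± 0.077 (SE; edgeR adjusted p = 7.02e-07). For these genes the vehicle libraries of siCtrl were below those of EV and the hormone libraries above, with GARS1 at 164, 165 and 164 against 206, 208 and 199 CPM without hormone and 278, 280.3 and 339.9 against 214, 206 and 202 CPM with it. These levels were scaled within each study, so levels of siCtrl and EV are not on a common scale. HARS1, LARS1, QARS1 and RARS1 were among the 5 cytosolic genes that did not pass. RARS1 rose in both arms, with a difference of 0.019 ± 0.094, and LARS1 fell in both, with a difference of 0.072 ± 0.08. The mitochondrial calls were MARS2 at 0.48 ± 0.13 (SE; edgeR adjusted p = 0.0132), WARS2 at 0.47 ± 0.14 (SE; edgeR adjusted p = 0.0193) and AARS2 at 0.33 ± 0.12 (SE; edgeR adjusted p = 0.0492). Without S35 the differences were 0.34, 0.39 and 0.29 (edgeR adjusted p = 0.0521, 0.0517 and 0.0938), and without TMM scaling 0.38, 0.37 and 0.23 (edgeR adjusted p = 0.065, 0.0766 and 0.201). WARS2 also did not pass in 4 other fits without a library. AARS2 did not pass with RLE, with DESeq2, without a filter or in 9 of 12 fits without a library. Leaving out EV_vehicle S15, EV_R1881 S2 or siCtrl_R1881 S36 left 1 mitochondrial call each. YARS2 and RARS2, mitochondrial genes called in both arms, differed by 0.32 ± 0.12 and 0.081 ± 0.11 and did not pass. What the siRNA or plasmid transfection and the study each contribute cannot be told apart.

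**Figure D3:**
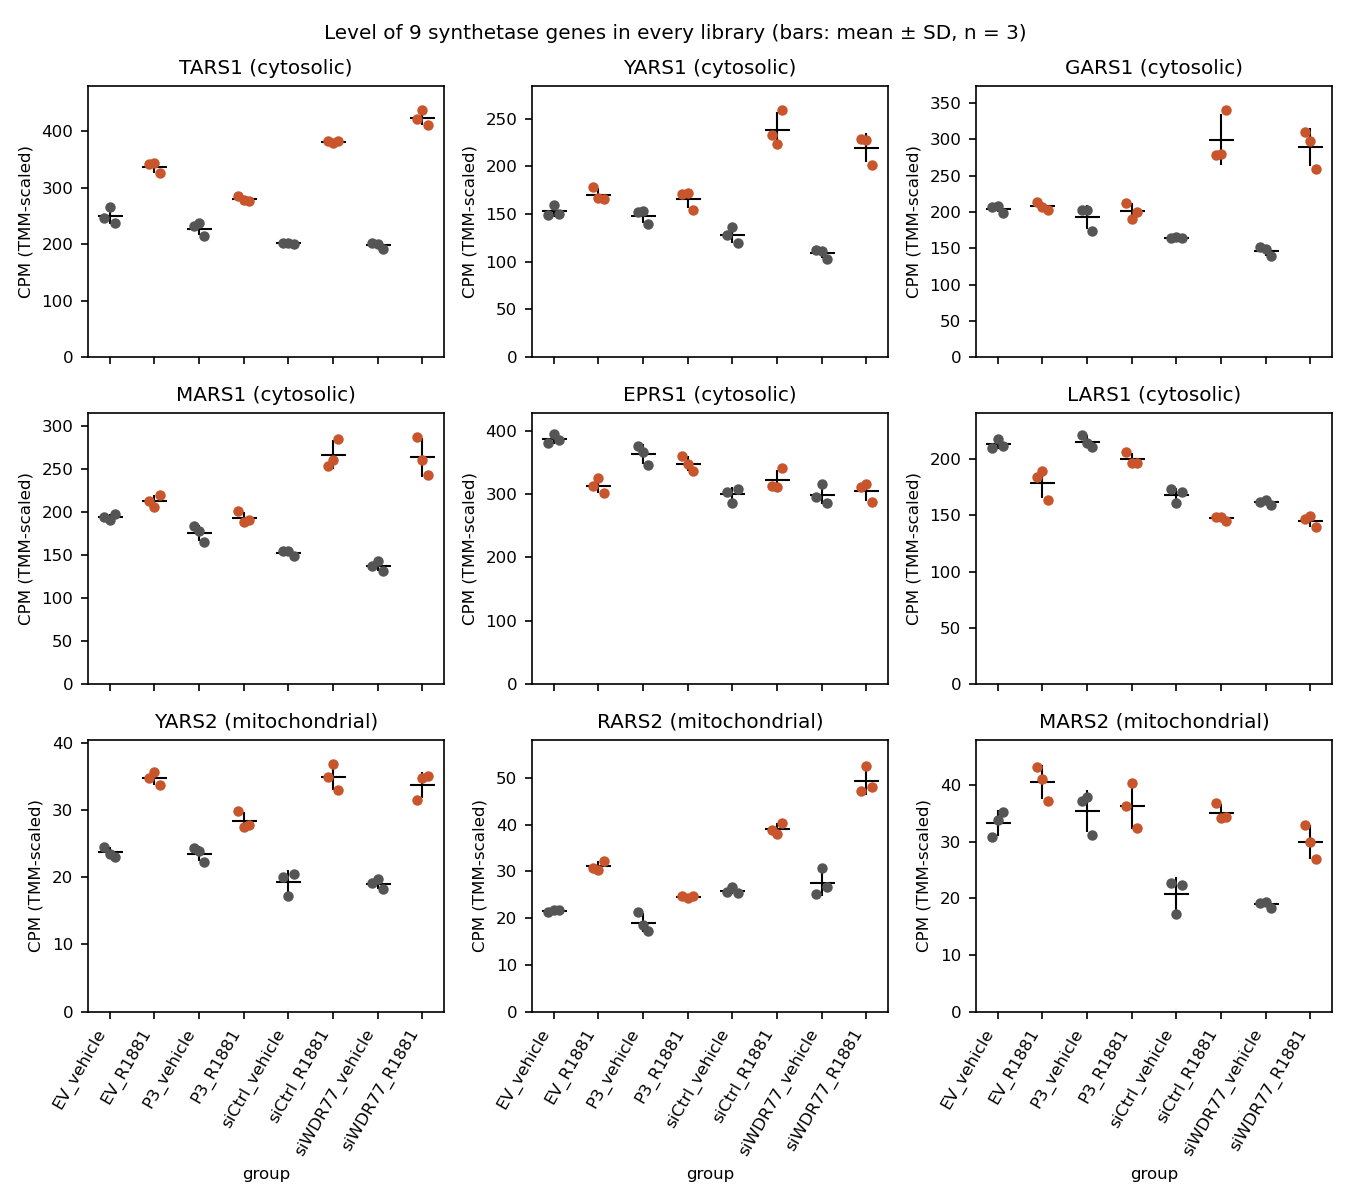
Level in every library (TMM-scaled CPM) of 9 synthetase genes in the 8 groups, grey for vehicle and orange for R1881, with the mean ± SD of 3 libraries as lines. TARS1, YARS2 and RARS2 are higher with R1881 in all 4 arms. YARS1, GARS1 and MARS1 reach their highest levels with R1881 in siCtrl and siWDR77. LARS1 is lower with R1881 in all 4 arms, though its fall in P3 was not called. Levels were scaled within each study.

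With the WDR77 peptide TARS1, RARS2, WARS1, YARS1 and YARS2 rose with hormone. The table names the P3 columns with R1881 with the added word siRNA, and they were matched to P3 by the rest of the name and the S number. R1881 raised 3 of 20 cytosolic and 2 of 16 mitochondrial genes and lowered 1 mitochondrial gene in P3, where 13% of all genes tested rose and 7.96% fell, and without TMM scaling 1 cytosolic gene rose and 2 fell. TARS1 had 231, 237 and 214 CPM without and 284, 278 and 277 CPM with R1881 and rose by 0.30 ± 0.051 (SE; edgeR adjusted p = 1.79e-05), against 0.43 ± 0.051 in EV. RARS2 had 21.2, 18.6 and 17.1 CPM without and 24.7, 24.4 and 24.8 CPM with hormone and rose by 0.38 ± 0.089 (SE; edgeR adjusted p = 0.00132), against 0.52 ± 0.088 in EV. Both genes were apart between the hormone and vehicle libraries of P3. WARS1 had 109, 111 and 96.7 CPM without and 126, 122 and 114 CPM with hormone and rose by 0.19 ± 0.058 (SE; edgeR adjusted p = 0.0116). YARS1 had 152, 153 and 139 CPM without and 171, 172 and 154 CPM with hormone and rose by 0.17 ± 0.055 (SE; edgeR adjusted p = 0.0264). Both calls were lost without P3_vehicle S5, P3_R1881 S20 or P3_R1881 S34, without TMM scaling and in the fit of all 24 libraries, and leaving out P3_vehicle S19 raised the cytosolic count to 5. YARS2 had 24.3, 24 and 22.2 CPM without and 29.9, 27.5 and 27.8 CPM with hormone and rose by 0.28 ± 0.082 (SE; edgeR adjusted p = 0.0116), a call lost without P3_vehicle S5, without P3_R1881 S20 or without TMM scaling.

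The change of the response by the peptide was tested as an interaction, which passed for EPRS1, the 1 cytosolic call, where 22.6% of all genes passed. EPRS1 had 376, 367 and 346 CPM without and 359.8, 348 and 336 CPM with R1881 in P3, which overlap, where EV had fallen from 380.5, 395 and 385 CPM to 313, 326 and 301 CPM. Its response was higher in P3 than in EV by 0.25 ± 0.07 (SE; edgeR adjusted p = 0.0076), and without P3_R1881 S20 the edgeR adjusted p was 0.0767. For TARS1 and RARS2 the difference was -0.13 ± 0.073 (SE; edgeR adjusted p = 0.206) and -0.15 ± 0.13 (SE; edgeR adjusted p = 0.456). These comparisons share libraries, so EV and P3 values are given side by side only.

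Between the plasmids without hormone 4 cytosolic genes were lower with P3, none was higher and no mitochondrial gene passed, where 7.93% of all genes were higher and 7.88% lower. FARSA (chr19:12922479-12934037, minus strand) had 222, 227 and 233 CPM in EV and 207, 208 and 176 CPM in P3 and fell by 0.21 ± 0.057 (SE; edgeR adjusted p = 0.0111). NARS1 (chr18:57600656-57622213, minus strand), for asparagine, had 321, 327 and 313 CPM in EV and 297, 276 and 265 CPM in P3 and fell by 0.20 ± 0.049 (SE; edgeR adjusted p = 0.00487). AARS1 (chr16:70252295-70289543, minus strand) had 519.5, 527 and 519 CPM in EV and 473, 469 and 447 CPM in P3 and fell by 0.17 ± 0.046 (SE; edgeR adjusted p = 0.00796). The groups did not overlap for these genes, and P3_vehicle S5 was the lowest library for each. MARS1 was the fourth, at -0.15 ± 0.052 (SE; edgeR adjusted p = 0.048). None of the 4 passed without TMM scaling, 9 passed with runs of consecutive S numbers as a block, 2 without P3_vehicle S5 and 7 without P3_vehicle S19, so this count rests on the scaling and on single libraries. FARSA did not pass without P3_vehicle S5 (edgeR adjusted p = 0.125) or EV_vehicle S29.

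Under R1881 3 cytosolic genes were higher and 6 lower with P3, where 37% of all genes were called, 18.1% higher and 18.9% lower, and without TMM scaling 6 were higher and 1 lower. RARS1 had 149.8, 133 and 129 CPM in EV and 114, 111 and 109.7 CPM in P3 and fell by 0.30 ± 0.058 (SE; edgeR adjusted p = 4.88e-05). TARS1 had 341, 343 and 325 CPM in EV and 284, 278 and 277 CPM in P3 and fell by 0.27 ± 0.051 (SE; edgeR adjusted p = 4.79e-05). WARS1 had 147, 147 and 141 CPM in EV and 126, 122 and 114 CPM in P3 and fell by 0.26 ± 0.058 (SE; edgeR adjusted p = 0.000286). No library of P3 reached the EV levels of these 3 genes. AARS1, NARS1 and MARS1 were lower by 0.14 to 0.18, and LARS1, EPRS1 and IARS1, of the complex, were higher by 0.16 ± 0.053, 0.15 ± 0.049 and 0.13 ± 0.049. Of the mitochondrial genes 2 were higher and 2 lower, and without TMM scaling 4 were higher and none lower. RARS2, with 30.7, 30.3 and 32.3 CPM in EV and 24.7, 24.4 and 24.8 CPM in P3, fell by 0.34 ± 0.088 (SE; edgeR adjusted p = 0.00205). YARS2, with 34.8, 35.6 and 33.7 CPM in EV and 29.9, 27.5 and 27.8 CPM in P3, fell by 0.29 ± 0.081 (SE; edgeR adjusted p = 0.00411). CARS2, with 37.7, 37.2 and 37.5 CPM in EV and 44.2, 44.1 and 42.3 CPM in P3, rose by 0.22 ± 0.07 (SE; edgeR adjusted p = 0.0139). Without TMM scaling TARS1, WARS1, RARS2 and YARS2 kept their sign but did not pass, and CARS2 did not pass with DESeq2 or without EV_R1881 S2, P3_R1881 S20 or P3_R1881 S34.

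After WDR77 knockdown R1881 again raised most cytosolic synthetase genes, with TARS1, YARS1 and GARS1 in the lead. R1881 raised 16 of 20 cytosolic genes and lowered 2 in siWDR77, where 53.2% of all genes were called, 27.7% as rises and 25.5% as falls, and without TMM scaling 10 rose and 4 fell. TARS1 had 201, 201 and 192 CPM without and 421, 438 and 411 CPM with R1881 and rose by 1.10 ± 0.051 (SE; edgeR adjusted p = 2.77e-15). YARS1 had 113, 112 and 103 CPM without and 229, 227 and 202 CPM with hormone and rose by 1.01 ± 0.068 (SE; edgeR adjusted p = 3.69e-12). GARS1 had 152, 149 and 139 CPM without and 309.9, 297 and 259 CPM with hormone and rose by 0.98 ± 0.074 (SE; edgeR adjusted p = 1.86e-10). The folds of the 3 genes were 2.14, 2.01 and 1.97. For YARS1 and GARS1 siWDR77_R1881 S38 was the lowest hormone library. All 12 genes outside the complex rose, at a median of 0.52, and 4 of 8 in it rose and 2 fell. The 2 were LARS1, which fell by 0.16 ± 0.054 (SE; edgeR adjusted p = 0.0175), and KARS1, which fell by 0.14 ± 0.058 (SE; edgeR adjusted p = 0.0456).

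Of the 16 mitochondrial genes in siWDR77 6 rose and 3 fell, near the 53.2% of all genes called, 27.7% as rises and 25.5% as falls. Without TMM scaling 3 rose and 7 fell. RARS2 had 25.2, 30.6 and 26.7 CPM without and 47.2, 52.6 and 48 CPM with R1881 and rose by 0.84 ± 0.08 (SE; edgeR adjusted p = 2.54e-09). YARS2 had 19.1, 19.7 and 18.2 CPM without and 31.5, 34.7 and 35.1 CPM with hormone and rose by 0.83 ± 0.089 (SE; edgeR adjusted p = 1.85e-08). MARS2 had 19.2, 19.3 and 18.3 CPM without and 33, 30 and 27 CPM with hormone and rose by 0.66 ± 0.1 (SE; edgeR adjusted p = 4.93e-06). The groups were apart for all 3 genes. FARS2 and CARS2 fell by 0.40 ± 0.14 and 0.20 ± 0.073.

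The knockdown itself was accompanied by few calls, over all genes as well as among the synthetases. Without hormone none of the 36 passed in edgeR, where 1.53% of all genes did. In that test 6 of 20 cytosolic and 1 of 16 mitochondrial genes had an unadjusted p under 0.05, where 2286 of all 17893 genes did. DESeq2 also called none, and leaving out S35 gave 1 cytosolic and 1 mitochondrial call. Under R1881 2 cytosolic genes were lower, and 1 mitochondrial gene was higher and 1 lower, where 7.22% of all genes were called, 3.9% higher and 3.31% lower. VARS1 (chr6:31777518-31795953, minus strand), the valyl-tRNA synthetase, had 195, 186 and 194 CPM in siCtrl and 162, 155 and 140.1 CPM in siWDR77 and fell by 0.33 ± 0.071 (SE; edgeR adjusted p = 0.00514). FARSA had 213, 220.1 and 204 CPM in siCtrl and 182, 188 and 167 CPM in siWDR77 and fell by 0.25 ± 0.059 (SE; edgeR adjusted p = 0.0103). RARS2 had 38.8, 38 and 40.4 CPM in siCtrl and 47.2, 52.6 and 48 CPM in siWDR77 and rose by 0.33 ± 0.08 (SE; edgeR adjusted p = 0.0109). The groups of these 3 genes did not overlap. AARS2 (chr6:44299654-44313326, minus strand) had 41.2, 41.9 and 41.4 CPM in siCtrl and 36.9, 35.2 and 32.9 CPM in siWDR77 and fell by 0.25 ± 0.075 (SE; edgeR adjusted p = 0.0461). The calls of FARSA and RARS2 were lost in 3 of 12 fits without a library, including siCtrl_R1881 S22 and S36 for both, and that of AARS2 in 8 of 12. The change of the R1881 response by the knockdown passed for no gene of the table in edgeR, where 1484 genes had an unadjusted p under 0.05, and among the synthetases 2 cytosolic and 1 mitochondrial gene had an unadjusted p under 0.05. DESeq2 called 56 genes of the table and no synthetase. For TARS1, the leading gene, the difference in response was 0.18 ± 0.072, for GARS1 0.11 ± 0.1 and for RARS2 0.25 ± 0.11. A missed threshold does not show that the responses were alike.

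**Figure D4:**
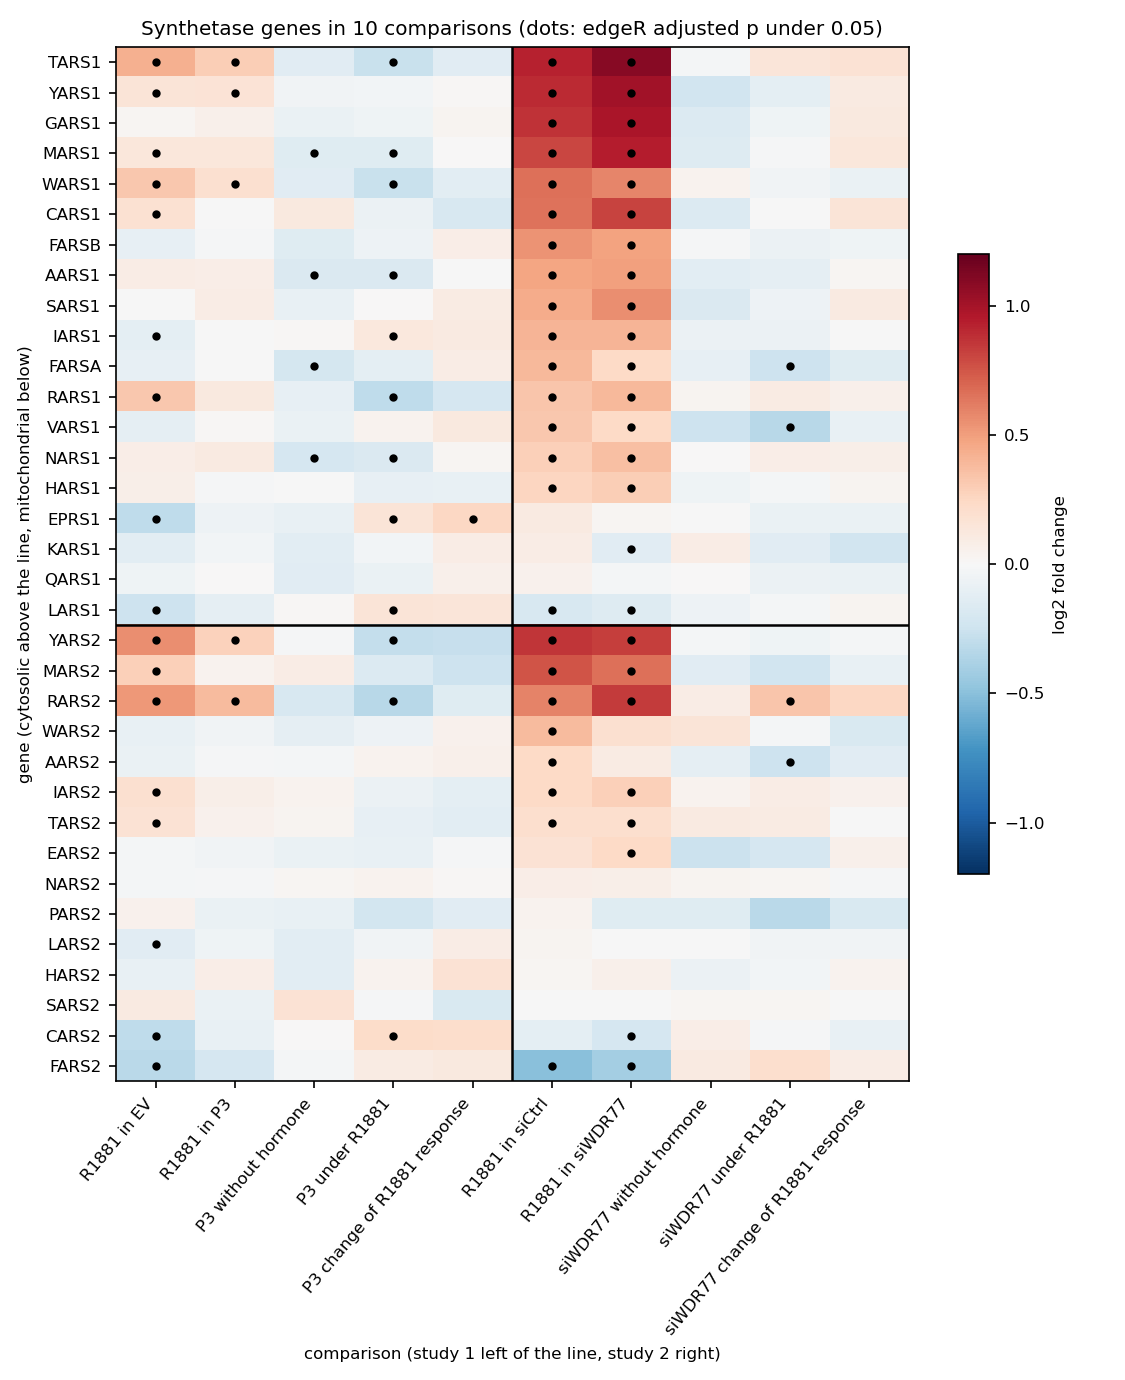
Fitted log2 fold change of 34 synthetase genes (rows, cytosolic above the line and mitochondrial below) in 10 comparisons (columns, study 1 left and study 2 right), with dots for an edgeR adjusted p under 0.05. The columns for R1881 in siCtrl and siWDR77 hold called rises for most of the cytosolic genes, 16 of all 20 in either arm (10 each without TMM scaling), and the column for the change of response by the knockdown holds no dot.

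Genes of the amino acid response were counted beside the synthetases, against 25.7% of all genes higher and 25.4% lower with R1881 in siCtrl and 24.9% and 26.4% in EV. The 12 synthetases known as members of that response had 10 rises and 1 fall with R1881 in siCtrl, at a median of 0.56, and 5 rises and 3 falls in EV, at 0.083. Without TMM scaling the counts were 9 and 2 in siCtrl and 2 and 5 in EV. The 8 other cytosolic synthetases had 6 rises and no fall in siCtrl at a median of 0.33. Of 30 further genes of the response, 17 rose and 5 fell in siCtrl, and 9 rose and 13 fell in EV. Without TMM scaling the counts were 14 and 7 in siCtrl and 7 and 18 in EV. VLDLR, a lipoprotein receptor gene, GPT2, a glutamate-pyruvate transaminase, and SLC38A2, an amino acid transporter, had the smallest adjusted p in siCtrl, at 1.79 ± 0.087 (SE; edgeR adjusted p = 7.06e-15), 1.01 ± 0.059 (SE; edgeR adjusted p = 2.39e-13) and 1.06 ± 0.067 (SE; edgeR adjusted p = 1.34e-12). VLDLR and SLC38A2 rose in EV as well, by 1.78 ± 0.079 (SE; edgeR adjusted p = 1.73e-22) and 1.25 ± 0.05 (SE; edgeR adjusted p = 5.74e-24). ATF4 itself rose in siCtrl by 0.48 ± 0.078 (SE; edgeR adjusted p = 2.99e-05) and fell in EV, at -0.21 ± 0.053 (SE; edgeR adjusted p = 0.00117). ASNS, asparagine synthetase, was at -0.58 ± 0.14 (SE; edgeR adjusted p = 0.000679) in EV and at 0.24 ± 0.13 (SE; edgeR adjusted p = 0.139) in siCtrl, which did not pass. The difference in response between siCtrl and EV passed for 18 of the 30, all larger in siCtrl (16 larger and 1 smaller without TMM scaling), and for 11 of the 12 synthetases, where 10.8% of all genes had a larger response in siCtrl.

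Genes that work beside the synthetases moved in both directions, where 51.1% of all genes were called with R1881 in siCtrl and 51.4% in EV. Of 13 partners in charging, such as AIMP scaffold proteins and the peptidyl-tRNA hydrolase PTRH2, 2 rose and 3 fell in siCtrl and 1 rose and 3 fell in EV, which are smaller shares, and without TMM scaling 1 rose and 9 fell and 1 rose and 7 fell. PTRH2 rose by 1.12 ± 0.077 (SE; edgeR adjusted p = 6.74e-12) in siCtrl, and TARS3, another cytosolic threonyl-tRNA synthetase gene outside the naming rule, was at -0.998 ± 0.083 (SE; edgeR adjusted p = 2.23e-10), opposite to TARS1. Of 5 tested elongation factors that deliver charged tRNA in the cytosol none rose, 2 fell in siCtrl (5 without TMM scaling) and 5 fell in EV, with EEF1A2 at -0.31 ± 0.074 (SE; edgeR adjusted p = 0.00125) and -0.54 ± 0.06 (SE; edgeR adjusted p = 7.63e-09). Of 9 mitochondrial translation factors 3 rose and 1 fell in each control arm (without TMM scaling 1 rose and 2 fell in siCtrl, and 1 rose and 4 fell in EV), led by GFM1, an elongation factor, at 1.56 ± 0.061 (SE; edgeR adjusted p = 8.94e-17) in siCtrl and 1.32 ± 0.053 (SE; edgeR adjusted p = 5.88e-24) in EV. Of 22 genes for RNA polymerase III and tRNA processing 9 rose and 4 fell in siCtrl and 4 rose and 7 fell in EV, and without TMM scaling 3 rose and 7 fell and 2 rose and 14 fell. POLR3E rose by 1.37 ± 0.069 (SE; edgeR adjusted p = 1.21e-14) while its fellow subunit gene POLR3G was at -2.49 ± 0.18 (SE; edgeR adjusted p = 7.81e-10).

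**Figure D5:**
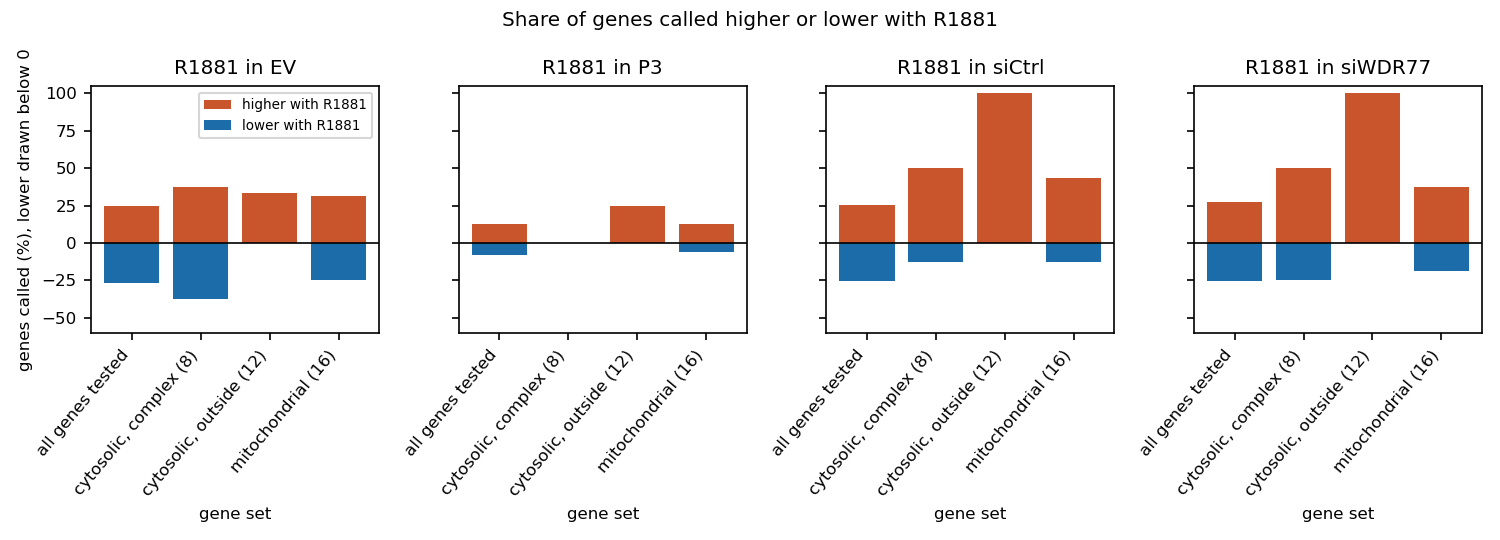
Share of genes called higher (orange, above 0) and lower (blue, below 0) with R1881 in the 4 arms, for all genes tested, the 8 synthetases of the multisynthetase complex, the 12 other cytosolic ones and the 16 mitochondrial ones. In siCtrl and siWDR77 all 12 outside the complex were called higher, against 25.7% and 27.7% of all genes, and without TMM scaling 8 were.

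Several of the genes named share exon bases with a neighbour, and since the strand setting of the counting is not given in the sources used here, reads of the pair cannot be told apart. MARS1 shares 355 bases with DDIT3, a stress response gene with a mean of 13.5 CPM, YARS1 396 with S100PBP (30.9 CPM), GARS1 99 with GARS-DT (35.6 CPM), WARS1 287 with WDR25 (11.5 CPM), CARS2 326 with ING1 (7.17 CPM) and KARS1 176 with TERF2IP (123 CPM). WARS2 shares 180 bases with the antisense gene AL359915.2 (19.9 CPM), SARS2 349 with MRPS12 (56.1 CPM), and EARS2 370 with UBFD1 (155 CPM). HARS1 and HARS2 share 437 bases head to head, and HARS1 shares 221 with WDR55 (50.1 CPM) and HARS2 152 with ZMAT2 (55.9 CPM). TARS1, LARS1, EPRS1, YARS2, RARS2 and MARS2 share no exon bases in the annotation with a neighbour expressed above a low minimum level. Neighbours under that level were not searched.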

How the data were processed

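RNA was measured as poly(A) RNA-seq libraries. Per the submitters' processing notes, reads were handled with bcl2fastq 2.20, STAR 2.7.9a, Subread 1.6.4 (featureCounts) and the build GRCh38.p7. The authors deposited 1 table of raw read counts per gene, with no normalization, and columns were matched to samples by title, where the P3 columns with R1881 carry the added word siRNA and were matched by the rest of the name and the S number. No source used here names the annotation release or the strand setting. From these counts each study was fitted with edgeR 4.0.16 in R 4.3.3, using TMM scaling, filterByExpr and the quasi-likelihood test over its 4 groups, with Benjamini-Hochberg adjustment over all genes tested and a threshold of 0.05. Each SE is the absolute log2 fold change over the square root of the F statistic of that test. Levels are TMM-scaled CPM, with the factors computed within each study, so levels of the 2 studies are not on a common scale. The fit was tested on simulated data made from the libraries of study 1, with changes set in EV under R1881 and 17230 genes in the fit. There 99 of 100 genes changed by 2-fold and 93 of 100 changed by 1.5-fold were recovered, with 14 false calls. The changed genes were drawn from the more abundant ones. Changes smaller than 1.5-fold, or in a large share of all genes, were not simulated. Depth was 16665915 to 24260446 counts per library, and a count of 3, the limit that a count of 0 allows, covers counting error only. Library values are given for, per comparison and class, the 3 called members with the largest fold change, and for members that went against the majority of their class with R1881 in EV or siCtrl. Of other lists, the 3 genes with the smallest adjusted p may be named, and ATF4 and ASNS were added as the factor of the amino acid response and a target of it. Alternatives were RLE size factors, no filter, DESeq2 1.42.0, the run of the sample number as a block, all 24 libraries in 1 fit and leaving out each library, and the closing section gives their effect. Members and lists were chosen with earlier results of these data known. P-values measure the spread between these libraries. That the libraries of 2 groups do not overlap describes a gene and is no further test. For siWDR77 without hormone 6 of 20 cytosolic and 1 of 16 mitochondrial genes did not overlap, though none was called. The share of all genes without overlap was not computed. Some members count in the totals but are not reported here by name or drawn gene by gene.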

Additional observations from a re-analysis of the deposited data

Results flagged for a closer look

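The results here are differences between the responses of 2 arms to the same hormone that passed a direct test of the difference. Between siCtrl and EV the response of GARS1 was larger in siCtrl by 0.85 on the log2 scale, that of YARS1 by 0.75, that of MARS1 by 0.68, that of MARS2 by 0.48, that of WARS2 by 0.47 and that of AARS2 by 0.33. The 3 mitochondrial genes of this set did not pass without the library siCtrl_vehicle S35 or without TMM scaling. Between P3 and EV the response of EPRS1 was higher in P3 by 0.25. Study and transfection cannot be told apart in the first set.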

How the results depend on the processing

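The fit without scaling and the comparison of siCtrl with EV were chosen after seeing the data. Cytosolic genes called with R1881 in EV numbered 10, and 6 without a filter. In P3 they numbered 3, with 5 by DESeq2 and 1 with all 24 libraries in 1 fit. For P3 without hormone 4 became 0 without scaling. For the change by P3 the 1 cytosolic call became 2 with RLE, 4 without scaling and 2 with DESeq2, and the 1 mitochondrial call became 2 without scaling and 0 with no filter, DESeq2 or all 24 libraries. For siWDR77 without hormone 0 cytosolic calls became 2, and 0 mitochondrial calls 1, with no filter or all 24 libraries. For siWDR77 under R1881 2 mitochondrial calls became 1 in both. For siCtrl against EV 3 mitochondrial calls became 0 without scaling. With the run of the sample number as a replicate block, calls for P3 without hormone were 9 cytosolic, for the change by P3 2 cytosolic, and for siWDR77 without hormone 1 in each class, and no other count moved by over 1.5 times. Same-run libraries had a correlation of deviations of -0.016 to 0.152 in study 1 and -0.082 to 0.127 in study 2, so the numbers were not taken as pairs.

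Leaving out each library in turn gave, for cytosolic and then mitochondrial calls, 5 to 11 and 7 to 9 with R1881 in EV, 1 to 5 and 1 to 3 in P3, 17 to 17 and 7 to 10 in siCtrl, and 16 to 18 and 6 to 9 in siWDR77. It gave 2 to 7 and 0 to 1 for P3 without hormone, 6 to 10 and 3 to 4 for P3 under R1881, 1 to 2 and 0 to 1 for the change by P3, 0 to 1 and 0 to 1 for siWDR77 without hormone, 1 to 2 and 0 to 3 for siWDR77 under R1881, 0 to 0 in both for the change by siWDR77, and 13 to 15 and 0 to 3 for siCtrl against EV. Cytosolic calls in EV were 5 without EV_vehicle S1 and 6 without EV_vehicle S29 or EV_R1881 S16. Mitochondrial calls in P3 were 1 without P3_R1881 S20. Under R1881 the siWDR77 mitochondrial calls were 0 without siCtrl_R1881 S22, siCtrl_R1881 S36 or siWDR77_R1881 S24. The 54 single-gene values were recomputed 972 times, of which 856 stayed on their side of the threshold, 116 lost the call and 0 reversed, and the cause was not tested.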

Other observations

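By the fold of the catalytic domain the 36 synthetases divide evenly into class I and class II enzymes. With R1881 in EV 9 of 18 class I genes rose and 5 fell, and 3 of 18 class II genes rose and 2 fell, where 51.4% of all genes were called. Without TMM scaling 4 rose and 9 fell in class I and 1 rose and 10 fell in class II. In siCtrl the counts were 12 and 1 for class I and 11 and 2 for class II, where 51.1% of all genes were called, and without TMM scaling 8 and 5, and 5 and 4. The response differed between siCtrl and EV for 9 genes of each class, where 17.2% of all genes were called, and without TMM scaling for 7 and 6.

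In the same promoters the letters CACGTG, the E-box bound by MYC and related factors, were found in 1 of 16 cytosolic and 3 of 14 mitochondrial promoters, against 7.26% of all 35116 promoters in the table. The consensus of the factor NRF1 was found on either strand in 3 of 16 cytosolic and 3 of 14 mitochondrial promoters, against 5.78% of all.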
